A study of Mus musculus with 4 samples.

Results

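The genes described here encode granule proteins of basophils and mast cells: Mcpt8 and Prss34 for basophils, and Cpa3, Cma1, Tpsb2, Tpsab1, Mcpt4 and Hdc for mast cells. These 8 genes, out of 22072 symbols in the deposited tables, were taken by symbol for what they encode. They and the gene lists below were chosen with earlier results of these data known, so counts set against all symbols are a description. Basophils and mast cells store preformed mediators in secretory granules, chiefly serine proteases of the chymase and tryptase families, a carboxypeptidase and histamine, held on the proteoglycan serglycin. Binding of antigen to IgE on the high-affinity receptor releases them. In the mouse, interleukin 3 expands basophils and stem cell factor sustains mast cells, and both factors were in the culture medium. Basophils and mast cells share Cpa3 and Hdc, so the division into basophil and mast cell members follows textbook use and is not absolute.

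RNA was sequenced from bone marrow leukaemic cells of C57BL/6 mice carrying MLL-AF9, a knock-in fusion of the Kmt2a gene that drives acute myeloid leukaemia. Cells of the Meis1f/f genotype (Meis1f/fCreER+/- MLL-AF9-/+) carried floxed Meis1 alleles and CreER, a recombinase activated by tamoxifen. Control cells carried MLL-AF9-/+ alone, with no CreER per the labels. Each genotype received 1000 nM 4-hydroxytamoxifen (4-OHT) or vehicle for 24 h, in medium that held 10 ng/ml each of SCF, IL-3, GM-CSF and the cytokine IL-6. There were thus 4 groups: Meis1f/f with 4-OHT, Meis1f/f with vehicle, control with 4-OHT and control with vehicle. The sources used here do not give the promoter that drives CreER, nor whether the cultures came from separate mice. Each group had 1 library, so no difference below has a replicate check, a test or a p-value.

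Levels are FPKM, fragments scaled to transcript length and library depth, as deposited. Scaling by length lets genes be set side by side, but only roughly, given the length trend described below. Estimated depth ran between 18.3 M reads (Meis1f/f with 4-OHT) and 42.7 M reads (Meis1f/f with vehicle). Differences are on the log2(FPKM + 1) scale, and a symbol passed the size rule, as higher or lower, where the difference was 1 or more in either direction, among 10922 symbols that reached 1 FPKM in a library. Ratios are plain FPKM ratios with 95% exact (Clopper-Pearson) intervals from estimated reads, which cover counting error only. By the sheet names the Meis1f/f vehicle library ran in lane 1, apart from the others (lane 2), and it had relatively higher values of long transcripts (Spearman's rho of length with the genotype difference across symbols, 0.25 under vehicle and 0.03 under 4-OHT). In comparisons with the Meis1f/f vehicle library, lane and condition cannot be told apart; the pair of 4-OHT libraries leaves it out. Meis1 itself, the floxed gene, was at 7.38 and 11.8 FPKM in Meis1f/f cells with 4-OHT and vehicle, and at 12.1 and 11.6 FPKM in control cells. Its 2 rows summed to 8.08 and 15.5 FPKM in Meis1f/f cells, and to 13.2 and 13.8 FPKM in control cells. These FPKM run over the whole transcript and the floxed part is not given, so they check the labels only in part. Since control cells had no CreER, recombinase activation and loss of Meis1 cannot be told apart.

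The promoters of 4 members are shown because the members were higher together in Meis1f/f cells and because the study deletes Meis1. They are the 250 bases before the annotated start, 5′ to 3′ on the gene's strand, from RefSeq on GRCm38.p6. Prss34 lies on the plus strand at chr17:25298144-25298393, Cpa3 on the minus strand at chr3:20242182-20242431, Hdc on the minus strand at chr2:126618679-126618928 and Mcpt8 on the minus strand at chr14:56085198-56085447. Capitals mark letters bound in general by GATA factors (on either strand, AGATAA and AGATAG, as well as the same letters led by T, written TGATAA and TGATAG) in Prss34, Cpa3 and Hdc and, in Mcpt8, the letters TGACAG that MEIS proteins bind in general.
Prss34: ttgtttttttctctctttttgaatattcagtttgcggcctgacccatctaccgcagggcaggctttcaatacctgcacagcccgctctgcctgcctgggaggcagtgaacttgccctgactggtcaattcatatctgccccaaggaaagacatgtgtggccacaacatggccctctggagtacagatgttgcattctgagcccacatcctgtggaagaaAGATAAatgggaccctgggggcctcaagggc
Cpa3: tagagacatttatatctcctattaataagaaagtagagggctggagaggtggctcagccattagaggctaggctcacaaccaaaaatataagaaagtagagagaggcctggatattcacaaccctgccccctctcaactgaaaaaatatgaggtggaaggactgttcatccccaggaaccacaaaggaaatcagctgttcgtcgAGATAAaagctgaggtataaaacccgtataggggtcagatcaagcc
Hdc: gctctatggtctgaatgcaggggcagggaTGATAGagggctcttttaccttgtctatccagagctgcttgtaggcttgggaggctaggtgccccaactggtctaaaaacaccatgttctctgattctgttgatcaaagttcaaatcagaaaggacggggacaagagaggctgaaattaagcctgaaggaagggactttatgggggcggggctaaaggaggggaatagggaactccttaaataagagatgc
Mcpt8: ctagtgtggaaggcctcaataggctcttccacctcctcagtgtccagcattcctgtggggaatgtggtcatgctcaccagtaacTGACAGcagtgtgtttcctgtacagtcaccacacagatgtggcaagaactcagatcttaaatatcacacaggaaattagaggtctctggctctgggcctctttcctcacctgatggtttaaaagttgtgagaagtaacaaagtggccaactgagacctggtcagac

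Of the 6 members with a promoter in the RefSeq table, 5 held a GATA match in these 250 bases, against 26.5% of all 32851 promoters of the same length; no matches overlapped in the members. The match lay from -31 to -26 in Prss34 and from -46 to -41 in Cpa3, counted from the start, and from -221 to -216 in Hdc. Cma1 and Mcpt4 held 1 match each, and Mcpt8 held none. TGACAG was found in 1 of the 6, Mcpt8, from -166 to -161. The 1 of 6 is near the share of all promoters, 15.9%. TTACGTAA, the core that PAR bZIP factors such as HLF bind in general, was in none of the 6 and in 0.113% of all promoters. The promoters compared were not matched for base composition, and Cma1, Mcpt4 and Mcpt8 are neighbours in 1 gene cluster. Whether GATA matches are more frequent in the members was not tested. These matches are letters in a window and do not show binding.

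All 8 genes were read in at least 1 library, and their levels spanned a wide range. Mcpt8 (chromosome 14, 56700999 to 56704034; positions here are those deposited, and their build is uncertain) encodes mouse mast cell protease 8, a granule protease specific to basophils. It was at 987 FPKM in Meis1f/f cells with 4-OHT, 1466 in Meis1f/f cells with vehicle, 112 in control cells with 4-OHT and 113 in control cells with vehicle. Both Meis1f/f libraries lay far above both control libraries, and the controls were alike. Among all symbols Mcpt8 ranked 56 by FPKM in the Meis1f/f 4-OHT library and 17 in the Meis1f/f vehicle library, against 605 and 625 in the control libraries with 4-OHT and vehicle.

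Prss34 (chromosome 17, 25435338 to 25437106), the tryptase-like protease of mouse basophils, was at 104 and 232 FPKM in Meis1f/f cells with 4-OHT and vehicle, against 24.4 and 34.1 FPKM in control cells with 4-OHT and vehicle. The Meis1f/f vehicle library was the highest of the 4, and each 4-OHT library was below the vehicle library of its genotype.

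Cpa3 (chromosome 3, 20115514 to 20142080) encodes the granule carboxypeptidase that trims peptides after the chymases have cut. It was at 652 and 355 FPKM in Meis1f/f cells with 4-OHT and vehicle, against 62.2 and 54.2 FPKM in control cells. Here the Meis1f/f 4-OHT library was the highest, unlike Mcpt8, Prss34 and Hdc.

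Hdc (chromosome 2, 126419403 to 126444401), histidine decarboxylase, the enzyme that makes histamine, was at 89.4 and 273 FPKM in Meis1f/f cells with 4-OHT and vehicle, against 14.9 and 16.9 FPKM in control cells. Only Meis1f/f vehicle cells had more Hdc than Prss34 per length. In the other 3 libraries Prss34 was the higher of the pair.

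Cma1 (chromosome 14, 56560287 to 56563498), a chymase of connective tissue mast cells, was at 47.7 and 43.7 FPKM in Meis1f/f cells with 4-OHT and vehicle, against 1.80 and 3.32 FPKM in control cells. Tpsb2 (chromosome 17, 25503277 to 25505037), the mast cell tryptase that is stored as a tetramer on heparin, was at 24.6 and 26.8 FPKM in Meis1f/f cells, against 2.25 and 3.39 FPKM in control cells. Both were low in control cells, where the values rested on an estimated 43 reads (Cma1) and 54 reads (Tpsb2) with 4-OHT and on 101 and 105 reads with vehicle.

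Mcpt4 (chromosome 14, 56678580 to 56681147), the other main chymase of connective tissue mast cells, was at 2.98 and 3.10 FPKM in Meis1f/f cells with 4-OHT and vehicle. In control cells it was listed at 0 with 4-OHT and was at 0.117 FPKM with vehicle, an estimated 3.29 reads. Tpsab1 (chromosome 17, 25480189 to 25482507), a second mast cell tryptase, was at 0.0474 and 0.382 FPKM in Meis1f/f cells with 4-OHT and vehicle, an estimated 0.948 and 17.8 reads, and was listed at 0 in both control libraries. RefSeq marks Tpsab1 as a transcribed pseudogene on the C57BL/6J assembly, and the C57BL/6 strain is known to lack the protein because of a splice site mutation. It had 2 transcript rows, and their sum was 0.0474 and 0.382 FPKM in Meis1f/f cells. It stayed under 1 FPKM and was not counted.

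In the control libraries Cma1 and Tpsb2 could not be ordered, since their counting intervals overlapped: 1.31 to 2.44 and 1.69 to 2.94 FPKM with 4-OHT, and 2.70 to 4.03 and 2.79 to 4.12 FPKM with vehicle. In both Meis1f/f libraries Cma1 was above Tpsb2 beyond counting error.

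**Figure D1:**
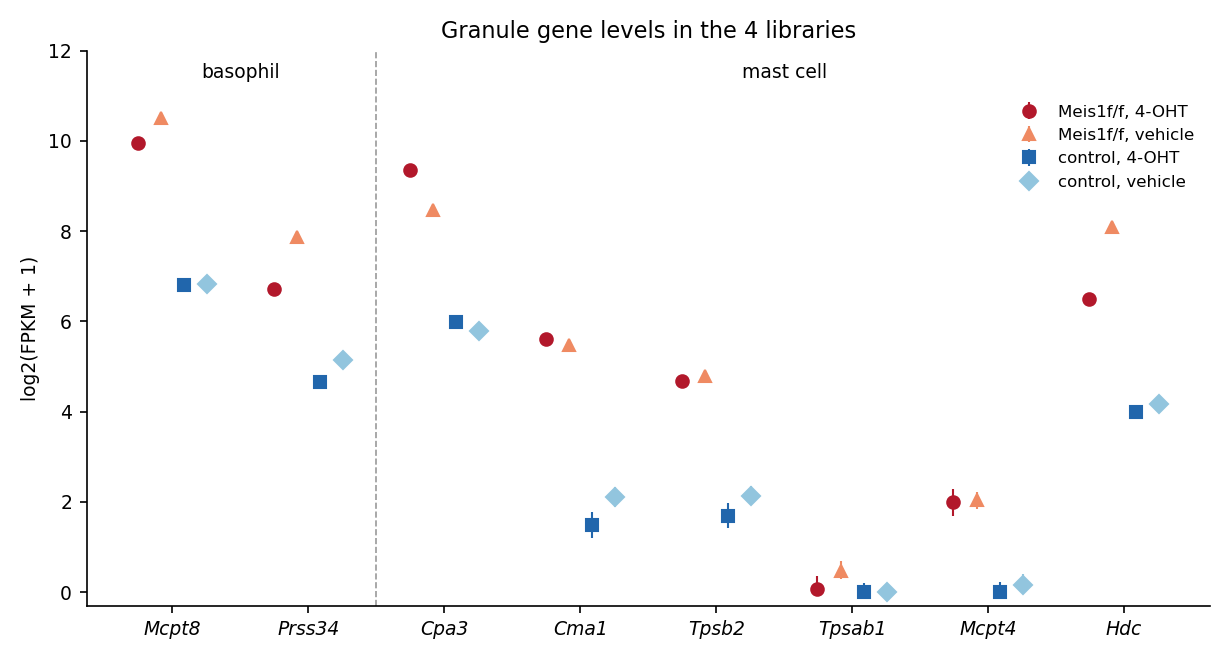
Level of each granule gene as log2(FPKM + 1) in the Meis1f/f 4-OHT, Meis1f/f vehicle, control 4-OHT and control vehicle libraries (1 point per library); bars are 95% counting intervals. For Mcpt8, Prss34, Cpa3, Cma1, Tpsb2, Mcpt4 and Hdc both Meis1f/f points lie above both control points, and Cpa3 is the member whose 4-OHT point stands clearly above its vehicle point in Meis1f/f cells (652 against 355 FPKM).

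The genotypes differed in the same direction for all 7 members that reached 1 FPKM. Under vehicle, all 7 were higher in Meis1f/f than in control cells by the size rule, where 5.84% of all symbols were higher, 2.11% lower and 7.95% either. Under 4-OHT all 7 were higher too, against 3.72% of all symbols higher, 1.61% lower and 5.33% either. Mcpt4 reached 1 FPKM only through the Meis1f/f libraries, so its direction follows from the floor, whereas the other 6 were above 1 FPKM in all 4 libraries. The Meis1f/f vehicle library takes no part in the 4-OHT comparison. In these bulk samples more cells of a type and more RNA per cell cannot be told apart.

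Among the basophil members, Mcpt8 was 8.83-fold higher in Meis1f/f cells under 4-OHT (interval 8.43 to 9.25) and 12.9-fold under vehicle (12.4 to 13.5). Prss34 was 4.27-fold higher under 4-OHT (3.92 to 4.67) and 6.81-fold under vehicle (6.42 to 7.24). Both thus stood closer to the control level in the 4-OHT pair than in the vehicle pair. Summed, they were at 1091 FPKM in Meis1f/f against 136 FPKM in control cells under 4-OHT, and at 1698 against 147 FPKM under vehicle.

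Among the mast cell members the order of the pairs was not shared. Cpa3 was 10.5-fold higher under 4-OHT (10.0 to 11.0) and 6.54-fold under vehicle (6.26 to 6.84). Cma1 was 26.5-fold higher under 4-OHT (19.3 to 36.5) and 13.1-fold under vehicle (10.8 to 16.3), and Tpsb2 was 11.0-fold (8.24 to 14.8) and 7.89-fold (6.44 to 9.68) higher. The intervals of Tpsb2 overlapped between the pairs, while those of Cpa3 and Cma1 did not. Hdc went the other way, 5.99-fold higher under 4-OHT (5.55 to 6.48) and 16.2-fold under vehicle (15.2 to 17.2). Mcpt4 was 26.5-fold higher under vehicle with a wide interval (9.70 to 142), and under 4-OHT no fold is given because control cells were listed at 0. The 6 mast cell members summed to 817 FPKM in Meis1f/f against 81.2 FPKM in control cells under 4-OHT, and to 702 against 78.0 FPKM under vehicle. In every library most of this sum was Cpa3 and Hdc, which basophils share. On the log2 scale the median of the 5 counted mast cell members, Mcpt4 included, was 2.98 under 4-OHT and 2.69 under vehicle, and that of all symbols was 0.00 and -0.06.

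Markers of some other cell types were also higher in Meis1f/f cells. Over all symbols, 3.72% were higher and 1.61% lower under 4-OHT, and 5.84% were higher and 2.11% lower under vehicle. Eosinophil granule genes (5 of 7 higher under both conditions) summed to 675 and 750 FPKM in Meis1f/f cells and to 246 and 342 FPKM in control cells with 4-OHT and vehicle, and none was at 0. Erythroid genes (5 of 6 higher under both conditions, of which 1 reached 1 FPKM in every library) summed to 75.5 and 67.5 against 6.17 and 15.9 FPKM. Of megakaryocyte genes, 1 of 6, Itga2b, was higher under both conditions and 1, Pf4, was lower under 4-OHT, and their sums were 34.8 and 45.7 against 33.3 and 33.6 FPKM. Primary granule genes of neutrophils (0 of 5 past the size rule between genotypes) summed to 5043 and 3342 against 5815 and 4971 FPKM. Of these, 4 of 5 were below 0 in each pair, and Prtn3 under vehicle (-0.99) fell just short of the rule. Genes of monocytes and macrophages (0 of 5 past the size rule) summed to 182 and 203 against 151 and 155 FPKM. Lymphocyte markers were sparse: Pax5, Cd3e and Gzmk were listed at 0 in every library, Cd79b was lower in Meis1f/f cells under both conditions, and Gzmb and Cd3g, of 10 genes of the cytotoxic lymphocyte list, were higher under both conditions. Cd3g was under 1 FPKM in control cells and was counted through the Meis1f/f libraries. That list summed to 184 and 171 against 89.1 and 117 FPKM, mostly Gzmb and Nkg7. The part of these other cell types in the granule gene differences was not tested.

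Within Meis1f/f cells the members differed in direction with 4-OHT. Hdc was lower with 4-OHT at 89.4 against 273 FPKM, a 3.06-fold difference (2.96 to 3.16), and Prss34 was lower at 104 against 232 FPKM, 2.23-fold (2.13 to 2.33). These 2 of 7 passed the size rule as lower, against 2.28% of all symbols, and 0 passed as higher, against 1.63%; 3.91% of all symbols passed in either direction. Mcpt8 was at 987 against 1466 FPKM, 1.49-fold lower (1.46 to 1.51), short of the size rule. Cpa3 was at 652 against 355 FPKM, a ratio of 1.84 (1.80 to 1.87) and a log2 difference of 0.88, also short of it. The other mast cell proteases differed little: the ratio was 1.09 for Cma1 (1.01 to 1.18), 0.920 for Tpsb2 (0.827 to 1.02) and 0.960 for Mcpt4 (0.687 to 1.33). The log2 difference of Cma1 was 0.12 as deposited and -0.01 under median ratio rescaling, so its direction was not settled. Median ratio rescaling moved the median of all symbols in this comparison to 0.00 (0.11 as deposited) and gave 114 symbols higher and 352 lower, against 178 and 249 as deposited. In the same comparison all 5 neutrophil primary granule genes were above 0, with a median difference of 0.71, and Prtn3 and Prss57 passed the size rule as higher; their part in the members' differences was not tested. Over the 9 alternatives the log2 difference ran from -1.74 to -1.56 for Hdc, from -1.29 to -1.12 for Prss34 and from 0.72 to 0.88 for Cpa3. With the length trend removed it was -1.65, -1.28 and 0.72 in that order.

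In control cells no member passed the size rule in either direction with 4-OHT, where 2.25% of all symbols did (1.37% higher and 0.879% lower). Mcpt8 was at 112 with 4-OHT against 113 FPKM with vehicle (ratio 0.986, interval 0.931 to 1.05). Prss34 was at 24.4 against 34.1 FPKM (ratio 0.714, 0.648 to 0.787), and Hdc at 14.9 against 16.9 FPKM (0.882, 0.805 to 0.968). Cpa3 was at 62.2 against 54.2 FPKM (1.15, 1.08 to 1.22). Cma1 and Tpsb2 were also lower in ratio, at 0.542 (0.374 to 0.790) and 0.662 (0.467 to 0.927), from the few reads given above. Prss34, Hdc and Cpa3 thus differed in the same direction in both genotypes, and the sizes were smaller in control cells.

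The difference of the 4-OHT effects, Meis1f/f minus control, was -1.43 (log2) for Hdc, the 1 member past the size rule, against 3.63% of all symbols lower, 2.11% higher and 5.74% either. It was -0.55 for Mcpt8 and -0.68 for Prss34, and 0.68 for Cpa3, 0.75 for Cma1 and 0.32 for Tpsb2. Both basophil members and Hdc were below 0, and the 4 mast cell proteases counted (Mcpt4 at 0.12 included) were above 0. The value of Mcpt4 turned to -0.10 when the trend with transcript length was removed.

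**Figure D2:**
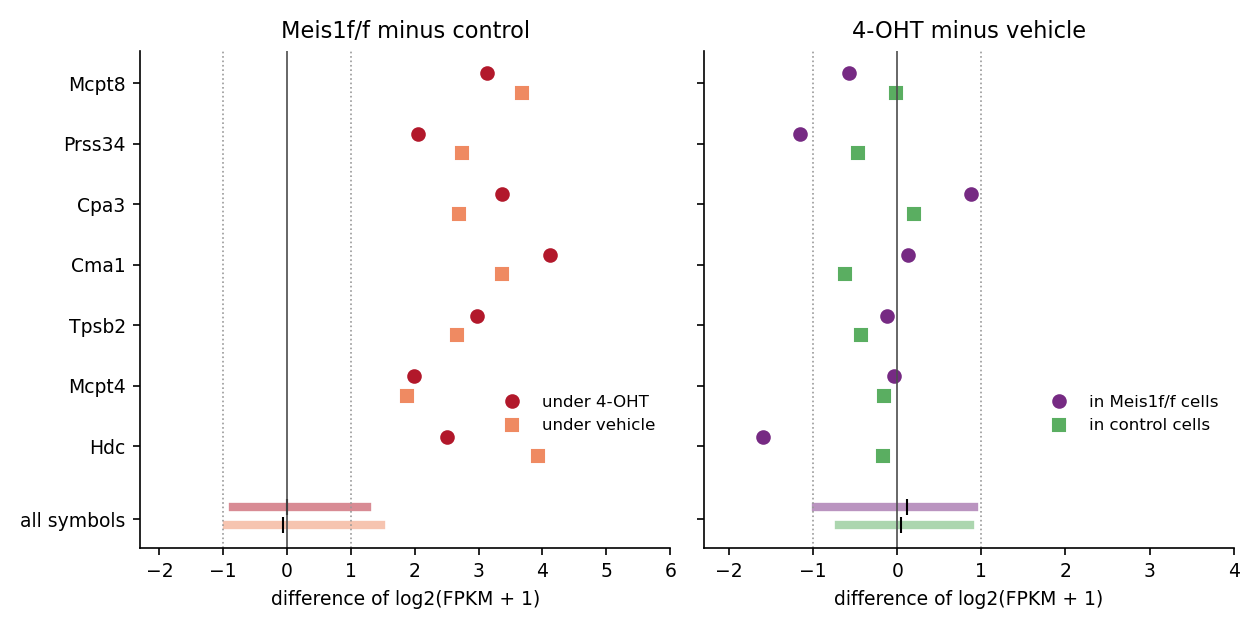
Log2(FPKM + 1) difference of the 7 counted members between genotypes (left; circles under 4-OHT, squares under vehicle) and between 4-OHT and vehicle (right; circles in Meis1f/f, squares in control cells). Dotted lines mark the size rule of 1, and the bars at the foot span the central 95% of all symbols with a tick at their median; on the left all members lie right of 1, and on the right Hdc (-1.60) and Prss34 (-1.15) lie left of -1.

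Ratios between members of the same library do not depend on how libraries are scaled to each other. They do depend on the trend with transcript length that set the Meis1f/f vehicle library apart, and were not corrected for it. The transcripts of Mcpt8, Prss34, Cpa3 and Hdc are 839, 1216, 1453 and 2378 bases long. The ratio of Cpa3 to Hdc was 7.29 (7.04 to 7.55) in Meis1f/f cells with 4-OHT, 1.30 (1.27 to 1.32) in Meis1f/f cells with vehicle, 4.17 (3.83 to 4.53) in control cells with 4-OHT and 3.20 (2.98 to 3.44) in control cells with vehicle. The Meis1f/f libraries were thus the highest and the lowest, with the controls between them. Mcpt8 over Cpa3 was 1.51, 4.13, 1.80 and 2.09 in the same order, so the Meis1f/f vehicle library stood apart upwards. Mcpt8 over Prss34 was 9.47, 6.30, 4.58 and 3.32, higher in both Meis1f/f libraries and, in each genotype, higher with 4-OHT. Prss34 over Hdc was 1.17, 0.850, 1.63 and 2.02. Cma1 over Tpsb2 was 1.94 (1.73 to 2.16), 1.63 (1.52 to 1.75), 0.802 (0.527 to 1.22) and 0.980 (0.733 to 1.29). Cma1 was thus above Tpsb2 in Meis1f/f cells only, and the wide intervals in control cells include 1. The basophil members made up 57.2%, 70.8%, 62.6% and 65.4% of the summed FPKM of all 8 genes. Most of the rest was Cpa3 and Hdc, which basophils share, so these shares do not divide the 2 cell types. The 8 genes together held 0.433% and 0.584% of all deposited FPKM in Meis1f/f cells with 4-OHT and vehicle, and 0.0505% and 0.0503% in control cells with 4-OHT and vehicle.

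**Figure D3:**
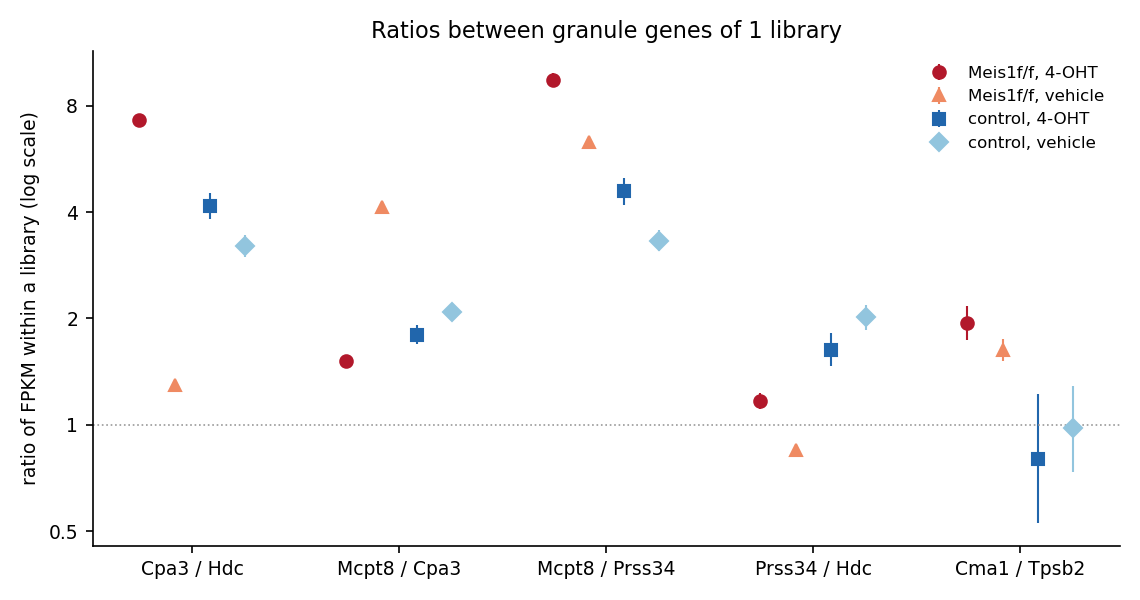
Ratio of the FPKM of 2 members within each library, on a log axis, in the Meis1f/f 4-OHT, Meis1f/f vehicle, control 4-OHT and control vehicle libraries; bars are 95% counting intervals. The Cpa3 to Hdc ratio is 7.29 with 4-OHT and 1.30 with vehicle in Meis1f/f cells, and 4.17 and 3.20 in control cells.

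Most members sit in 2 protease gene clusters, and neighbours within them differed. The chymase cluster on chromosome 14, from Cma1 to Gzmb, held 17 symbols, of which 7 reached 1 FPKM. Mcpt8 lies next to Ctsg, the cathepsin G gene of neutrophil primary granules. Ctsg was at 1128 and 758 FPKM in Meis1f/f cells with 4-OHT and vehicle, against 1185 and 1208 FPKM in control cells with 4-OHT and vehicle, and did not pass the size rule between genotypes. Gzmb, the granzyme B gene at the far end, was at 122 and 112 FPKM in Meis1f/f cells and at 16.8 and 32.1 FPKM in control cells with 4-OHT and vehicle, and did pass it under both conditions. Mcpt2, a chymase of mucosal mast cells, was at 4.85 and 3.11 FPKM in Meis1f/f cells and listed at 0 and at 0.265 FPKM in control cells. Mcpt1, the other mucosal chymase, stayed at or under 0.321 FPKM in every library, Mcpt9 at or under 0.0154 and Cma2 at or under 0.0739.

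In the tryptase cluster on chromosome 17, from Prss34 to Tpsg1, 3 of 6 symbols reached 1 FPKM. Prss28 and Prss29, between Prss34 and Tpsab1, were listed at 0 in every library apart from Prss28 at 0.150 FPKM in Meis1f/f cells with vehicle. Tpsg1, a tryptase anchored in the membrane, was at 2.69 and 1.52 FPKM in Meis1f/f cells and at 0.288 and 0.509 FPKM in control cells with 4-OHT and vehicle. Exactly shared sequence was limited. No run of 36 bases of the Mcpt8, Prss34, Cpa3 or Hdc transcripts occurred unchanged in a transcript of another gene (GENCODE M21). Runs with mismatches were not counted, so near-identical sequence was not measured. The share of exactly shared runs was 0.369% for Tpsb2, 9.24% for Cma1 and 9.41% for Mcpt4, which shares runs with Cma2, Mcpt9 and Mcpt1. The low values of Mcpt4 are uncertain for that reason too.

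**Figure D4:**
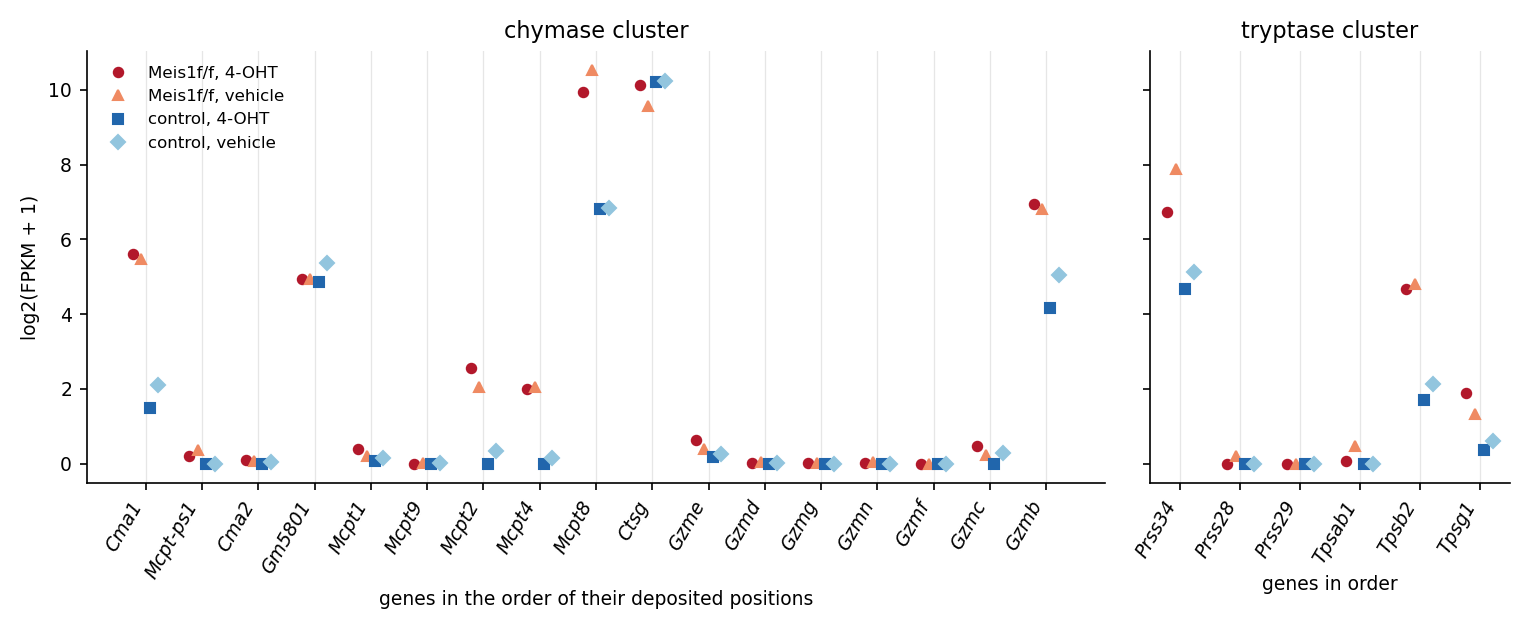
Log2(FPKM + 1) of each symbol in the chymase cluster (left, 17 symbols) and the tryptase cluster (right, 6 symbols), in the order of deposited positions, in the Meis1f/f 4-OHT, Meis1f/f vehicle, control 4-OHT and control vehicle libraries. Cma1, Mcpt8, Gzmb, Prss34 and Tpsb2 show both Meis1f/f points above both control points, while for Ctsg, beside Mcpt8, the 4-OHT point of Meis1f/f cells (1128 FPKM) lies near the controls.

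The transporters of histamine were higher in Meis1f/f cells, as Hdc was. Of 7 histamine genes, 4 reached 1 FPKM. In Meis1f/f against control cells, 2 were higher and 1 was lower under 4-OHT, and 2 were higher under vehicle. The shares over all symbols were 3.72% higher and 1.61% lower under 4-OHT, and 5.84% higher under vehicle. Slc18a2, the vesicular transporter that loads histamine into granules, was at 31.9 and 53.1 FPKM in Meis1f/f cells and at 5.34 and 9.07 FPKM in control cells with 4-OHT and vehicle. Slc22a3, an organic cation transporter that carries histamine across the plasma membrane, was at 13.0 and 17.5 FPKM against 2.42 and 1.96 FPKM. Hnmt, which inactivates histamine by methylation, was lower in Meis1f/f cells, at 0.785 and 0.480 FPKM against 2.78 and 1.76 FPKM. It passed the size rule under 4-OHT alone. Hnmt was counted through the control libraries alone, so its direction follows from the floor.

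The granule matrix and processing genes showed less of a genotype difference. Of 21, 2 were higher under 4-OHT and 5 under vehicle, against 3.72% and 5.84% of all symbols. In either pair 0 of the 21 were lower, against 1.61% and 2.11% of all symbols. Their median difference was 0.43 under 4-OHT and 0.35 under vehicle, against 0.00 and -0.06 for all symbols. Srgn, the serglycin core protein, was at 1986 and 1846 FPKM in Meis1f/f cells and at 1249.8 and 1229.8 FPKM in control cells with 4-OHT and vehicle. Cd63, a granule membrane tetraspanin, was at 610.4 and 519 FPKM against 332 and 447 FPKM. Ctsc, the dipeptidase that activates granule serine proteases, was at 107 and 100.2 FPKM in Meis1f/f cells with 4-OHT and vehicle and at 147 and 139.8 FPKM in control cells. Ctse, an aspartic protease of mast cell granules, at 3.73 and 5.06 against 1.32 and 1.19 FPKM, and Rab27b, a GTPase of granule exocytosis, at 2.44 and 3.78 against 0.682 and 0.854 FPKM, were the 2 that were higher under both conditions. Rab27b was counted through the Meis1f/f libraries alone. Of the 20 genes at 1 FPKM in every library, 1 was higher under 4-OHT and 4 under vehicle. The 1 of 20 under 4-OHT is near the share of all symbols (3.72%).

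Most counted receptors of basophils and mast cells were higher in Meis1f/f cells. Of 14, 11 reached 1 FPKM, all of them in every library. In Meis1f/f cells 8 were higher under 4-OHT and 8 under vehicle, against 3.72% and 5.84% of all symbols. Under 4-OHT 0 were lower (1.61% of all symbols), and under vehicle 1 was lower (2.11%). Fcer1a, the IgE-binding chain of the high-affinity receptor, was at 73.7 and 56.6 FPKM in Meis1f/f cells and at 8.04 and 12.1 FPKM in control cells with 4-OHT and vehicle. Ms4a2, its beta chain, was at 28.4 and 17.6 against 3.99 and 5.51 FPKM, while Fcer1g, the signalling chain shared by many myeloid receptors, was at 282 and 311 against 238 and 277 FPKM. Cd200r3, an activating receptor of mouse basophils and mast cells, was at 32.8 and 17.1 against 2.99 and 2.29 FPKM in 1 of its 4 rows. Its rows summed to 54.8 and 51.8 against 5.47 and 5.71 FPKM, so the genotype difference held and the gap between 4-OHT and vehicle in Meis1f/f cells was small. Il1rl1, the interleukin 33 receptor, was at 29.7 and 42.5 against 4.30 and 4.80 FPKM. Kit, the stem cell factor receptor that marks mast cells rather than mature basophils, was at 9.62 and 7.21 against 5.07 and 5.70 FPKM and did not pass the size rule; its 2 rows summed to 14.7 and 12.3 against 8.21 and 8.75 FPKM. Mrgprb2, a receptor of connective tissue mast cells, was listed at 0 in every library. Pilra was the 1 receptor lower in Meis1f/f cells under vehicle, at 5.81 against 13.5 FPKM.

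Cytokine and lipid mediator genes numbered 11, of which 10 reached 1 FPKM. Among the 10, 5 were higher in Meis1f/f cells under 4-OHT and 8 under vehicle, against 3.72% and 5.84% of all symbols. Several of these, Il4, Il13 and Hpgds among them, were under 1 FPKM in both control libraries and were counted through the Meis1f/f libraries; of the 6 genes at 1 FPKM in every library, 4 were higher under each condition. Within Meis1f/f cells 4 of the 10 were lower with 4-OHT and 1 was higher, against 2.28% and 1.63% of all symbols. Of those 6 genes, 1 was lower and 1 was higher. Il6 was at 36.1 and 86.3 FPKM in Meis1f/f cells and at 3.44 and 4.31 FPKM in control cells with 4-OHT and vehicle. Il4 was at 1.50 against 14.3 FPKM and Il13 at 2.51 against 16.1 FPKM in Meis1f/f cells with 4-OHT against vehicle. The 2 rows of Il4 summed to 4.15 against 18.9 FPKM, a smaller gap. Ltc4s, which makes leukotriene C4, was the 1 higher, at 12.1 against 4.97 FPKM. Alox5, 5-lipoxygenase, was at 99.5 and 106 FPKM in Meis1f/f cells and at 27.6 and 20.8 FPKM in control cells with 4-OHT and vehicle. Cyp11a1, a steroid synthesis enzyme found in mast cells and basophils, was at 154 and 191 against 65.4 and 67.2 FPKM.

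Of 14 transcriptional regulators of these lineages, 3 were higher in Meis1f/f cells under 4-OHT and 5 under vehicle, with 0 lower. Over all symbols 3.72% and 5.84% were higher, and 1.61% and 2.11% were lower. Of the 12 at 1 FPKM in every library, 2 were higher under 4-OHT and 4 under vehicle; Ikzf2 was counted through the Meis1f/f libraries. Gata2, needed for both lineages, was at 54.6 and 105 FPKM in Meis1f/f cells and at 10.3 and 16.9 FPKM in control cells with 4-OHT and vehicle. Gata1 was at 12.3 and 19.8 against 2.24 and 2.82 FPKM. The direction of Mitf, a regulator of mast cell protease genes, depended on its rows: the row of highest mean was at 0.854 and 1.59 against 1.66 and 2.61 FPKM, and its 3 rows summed to 3.65 and 4.76 against 2.44 and 3.97 FPKM. Cebpa, which favours basophils, was at 55.8 and 41.3 against 62.2 and 62.0 FPKM. The median 4-OHT difference of the regulators in Meis1f/f cells was -0.48, against 0.11 for all symbols. Of the regulators 0 passed the size rule there, against 3.91% of all symbols.

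**Figure D5:**
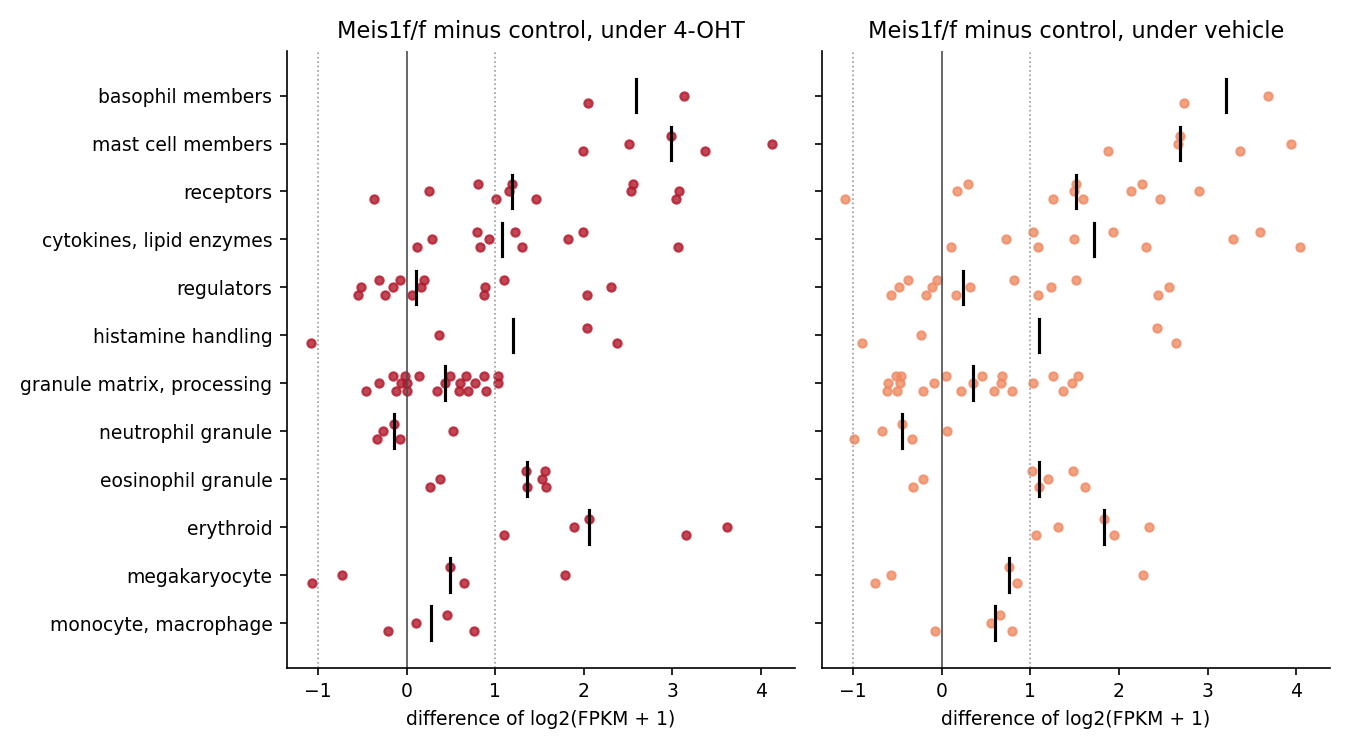
Log2(FPKM + 1) difference between Meis1f/f and control cells under 4-OHT (left) and vehicle (right) for each counted gene of 12 gene lists (1 point per gene; points are spread vertically for legibility, black bars are medians, dotted lines the size rule). Receptors and cytokine or lipid enzyme genes lie mostly above 0, and 4 of 5 neutrophil granule genes lie below 0 in each.

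By likeness of profile over the 4 libraries, the genes nearest to each main member were not the other members. Likeness was the root mean square difference of the centred log2(FPKM + 1) values, over 8289 other genes at 5 FPKM or more in a library. Nearest to Prss34 were Havcr2, an immune checkpoint receptor (0.072), Gata2 (0.11) and Lama5, a laminin chain (0.12). Nearest to Cpa3 were Anpep, an aminopeptidase of myeloid cells (0.12), Cd200r3 (0.13) and Chi3l4, a chitinase-like protein (0.17). With rows summed, Cd200r3 lay at 0.30 and was the 7th nearest to Cpa3, so its place rests on 1 row; the other genes named here have 1 row each. Nearest to Mcpt8 were Pga5, a pepsinogen (0.16), and the stefin A genes Stfa2 (0.16) and Stfa2l1 (0.17). Nearest to Hdc were Il6 (0.21), Stfa2l1 (0.31) and Stfa2 (0.33). Mcpt8 and Prss34 lay 0.57 apart. Tpsb2 (0.37), Cma1 (0.37), Hdc (0.38) and Cpa3 (0.55) were all nearer to Mcpt8 than Prss34 was. Mcpt4 (0.76) and Tpsab1 (1.57), both under 5 FPKM in every library, were farther from it. Cpa3 and Hdc lay 0.89 apart. With 4 libraries many genes share a profile, and these values are a description.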

How the data were processed

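The submitters' processing notes name Bowtie for alignment and the mm8 build. The sources used here give no versions, annotation release, strand setting or filters. Per the file headers, the deposited FPKM values are per transcript and from the authors. The coverage column (unit: signal, reads over each base on average) was also deposited by the authors. Of 28107 rows for 22072 symbols, 394 were not marked OK in some library and were left out; each symbol kept the row of highest mean FPKM.

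Coverage times length of single-row genes over 1000 bases clustered between 35 and 60 bases (507 to 579 genes per library), with 20 to 31 genes just below. The median, 45.0 to 45.6 bases, was taken as 1 read and gave estimated reads. PCR copies are not independent molecules, so intervals cover counting error only. FPKM is not a count, so no count test was run.

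A pseudocount of 1, a floor of 1 FPKM and a size rule of 1 (log2) were used in 5 comparisons, with 9 alternatives. The rule for named genes takes the members, Meis1, up to 3 genes of highest mean and up to 3 of largest genotype difference under vehicle in each of 13 lists, and the 3 nearest in profile to each of Mcpt8, Prss34, Cpa3 and Hdc. Fcer1a, Ms4a2 and Kit are from the marker lists. Ctsc, Mitf, Pilra, Ltc4s, Hpgds, Prss57, Mrgprb2, the cluster neighbours and the markers listed at 0 were named after their values were seen. Members and lists were chosen with earlier results of these data known. The result of 1 marker list is not reported here in full. The scripts were tested on simulated data. Python 3.11.15, numpy 2.4.6, pandas 2.3.3, scipy 1.17.1 and matplotlib 3.10.9 were used.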

Additional observations from a re-analysis of the deposited data

Results flagged for a closer look

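With 4-OHT some genes differed in opposite directions in the 2 genotypes, with counting intervals that left out 1 in both; with 1 library per group the difference was not tested, and intervals cover counting error only. Among the members this was Cma1, with a ratio of 1.09 in Meis1f/f cells and 0.542 in control cells and a difference of the 4-OHT effects of 0.75 (log2); its direction in Meis1f/f cells turned under median ratio rescaling. Positive differences were also found for Mcpt2 (0.85), Gzmb (1.01), Ctsg (0.60), Cd63 (0.66), Lamp1 (0.20), Klf1 (0.74) and Hbb-b1 (1.32). Negative ones were found for Bhlhe40 (-1.31), Lyst (-0.77), Csf1r (-0.76), Slc22a3 (-0.61) and Alox5 (-0.48). In Meis1f/f cells the log2 difference with 4-OHT was only 0.12 for Gzmb, 0.07 for Lamp1 and 0.15 for Hbb-b1. The median of all symbols there was 0.11, so these directions were not settled either. In control cells Mcpt2 rested on an estimated 0 reads with 4-OHT against 7 with vehicle, and Klf1 on 19 against 44. Ctsg differed little in control cells, at a ratio of 0.981 (0.965 to 0.997). The interval of Slc22a3 there, 1.003 to 1.52, barely left out 1.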

How the results depend on the processing

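The genotype difference of Mcpt8, Prss34, Cpa3, Cma1, Tpsb2 and Hdc stayed past the size rule in both the 4-OHT and the vehicle pair under each of the 9 alternatives, and so did the lower values of Hdc and Prss34 with 4-OHT in Meis1f/f cells. Mcpt4 lost the rule with a pseudocount of 5 (0.67 under 4-OHT and 0.66 under vehicle). With a pseudocount of 0.1 it became the 1 member lower with 4-OHT in control cells and the 1 member higher in the difference of the 4-OHT effects. The direction of Cma1 with 4-OHT in Meis1f/f cells turned under median ratio rescaling (-0.01) and without the length trend (0.00), and that of Mcpt8 in control cells without the length trend (0.02).

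Counts over all symbols depended on the pseudocount. With 0.1 in place of 1, 423 were higher and 433 lower with 4-OHT in Meis1f/f cells, 479 and 203 in control cells, 1052 and 398 between genotypes under vehicle, 646 and 338 under 4-OHT, and 430 and 718 in the difference of the effects. With 5 these were 38 and 72, 13 and 20, 237 and 55, 150 and 51, and 53 and 109. Against these stand 178 and 249, 150 and 96, 638 and 230, 406 and 176, and 231 and 396 with 1. A floor of 5 FPKM gave 92 higher in control cells, 262 higher and 106 lower between genotypes under 4-OHT, and 242 lower in the difference of the effects. Median ratio rescaling gave 114 higher with 4-OHT in Meis1f/f cells, and summed rows gave 63 lower in control cells. The other 152 of 180 counts under an alternative stayed within 1.5 times.

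No paired analysis was possible because each group had 1 library, and for the same reason leaving out a replicate gave no value. Mcpt4 has no value with a floor of 5 FPKM. Depth limits Cma1, Tpsb2, Mcpt4 and Tpsab1 in control cells, where each had at most 105 estimated reads.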
